A study of Mus musculus with 15 samples.

Results

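The collagen chain genes were taken as every gene of the expression table whose symbol is Col, a type number, the letter a and a chain number, which gave 44 of the 35880 genes listed. They were measured by mRNA sequencing in 15 cultures of LL2, a mouse Lewis lung carcinoma cell line carrying a luciferase (LL2/Luc2). LL2 WT, the unedited parental line, was compared with 3 lines in which Keap1 had been cut with CRISPR (KEAP1 KO #1, KEAP1 KO #2 and KEAP1 KO #3) and 1 line in which Nfe2l2, the gene of NRF2, had been cut (NRF2 KO), with 3 biologic replicates of each. Each knockout line grew from 1 sorted cell that had taken up a plasmid with the guide, Cas9 and GFP, so a difference from LL2 WT carries both the deletion and whatever set that cell apart from its parent, and these cannot be told apart. All lines were grown in the same serum-containing medium. KEAP1 is the adaptor that marks the transcription factor NRF2 for degradation, and the comparison asked how gene expression in the cancer cells moved when NRF2 was released or removed.

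Collagens are secreted proteins whose chains wind around each other in a triple helix built on glycine, proline and hydroxyproline. Fibrillar collagens form the rope-like fibres of connective tissue, while type IV collagen forms the sheet beneath epithelia and vessels. FACIT collagens (fibril-associated collagens with interrupted triple helices) sit on the surface of fibrils, and the others include the beaded filaments of type VI, the anchoring fibrils of type VII, the networks of types VIII and X, the membrane-bound collagens and the multiplexins XV and XVIII. In lung tumors most fibrillar collagen is laid down by fibroblasts, but carcinoma cells make collagen chains as well. Because several types are built from more than 1 kind of chain, whether the partner chains of a molecule are transcribed together is part of what the levels below describe.

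The values are in TPM, a unit in which read counts are divided by transcript length and scaled to the same total in every library, so levels of different chains can be set side by side. The depth was not the same in all libraries, and 1 read on a transcript of 5000 bases was worth 0.00384 to 0.00720 TPM. Differences are log2 fold changes on the log2(TPM + 0.1) scale, given with their standard errors. A gene is called changed when limma, fitted over the 14652 genes whose TPM summed to at least 3 over the 15 samples, gave an adjusted p under 0.05 and a log2 fold change beyond 1 in either direction. As a check of the labels, Keap1 ranged over 22.0 to 24.0 TPM in LL2 WT, 10.8 to 12.5 in KEAP1 KO #1, 4.28 to 7.29 in #2 and 3.78 to 6.83 in #3, and was called lower in #2 and #3. Nfe2l2 ranged over 170.2 to 208 TPM in LL2 WT and 102 to 146 in NRF2 KO, but 87.0 to 124 in the KEAP1 KO lines as well, and was called in none, so its level did not single out NRF2 KO. Nqo1, the usual reporter gene of NRF2, rose by 3.97, 3.19 and 4.02 on the log2 scale in the KEAP1 KO lines and changed by -1.61 in NRF2 KO, all called.

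Of the 44 collagen genes, 13 (29.5%) reached 1 TPM on average in at least 1 line, against 34.9% of all genes listed. They were 3 of 11 fibrillar chains (Col3a1, Col5a1 and Col5a3), 2 of 6 basement membrane chains (Col4a1 and Col4a2), 2 of 9 FACIT chains (Col12a1 and Col16a1) and 6 of 18 others (Col6a1, Col6a2, Col6a3, Col7a1, Col8a1 and Col18a1). Col12a1, with a highest line mean of 1.45 TPM, lay just inside that level, and Col26a1 (0.934 TPM) and Col2a1 (0.883 TPM) lay just outside it. The 31 chains below it included the cartilage collagens Col9a1, Col10a1 and Col11a1, the kidney basement membrane chains Col4a3 and Col4a4 and all 4 membrane-bound collagens, of which Col13a1 was listed at 0 in every sample. Only 22 of the 44 passed the filter on low values and were tested: 7 fibrillar, 3 basement membrane, 5 FACIT and 7 other chains. A chain that passed through its level in 1 line alone could hardly fail to differ between lines, so the counts below describe those 22 genes and not the family. Samples of a line all lay above or all below LL2 WT for 37%, 42% and 40% of tested genes in KEAP1 KO #1, #2 and #3. In NRF2 KO this held for 13.2%. Of the 22 collagen chains, 5, 11, 12 and 4 lay wholly below LL2 WT in these lines and 2, 2, 1 and 3 wholly above.

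**Figure D1:**
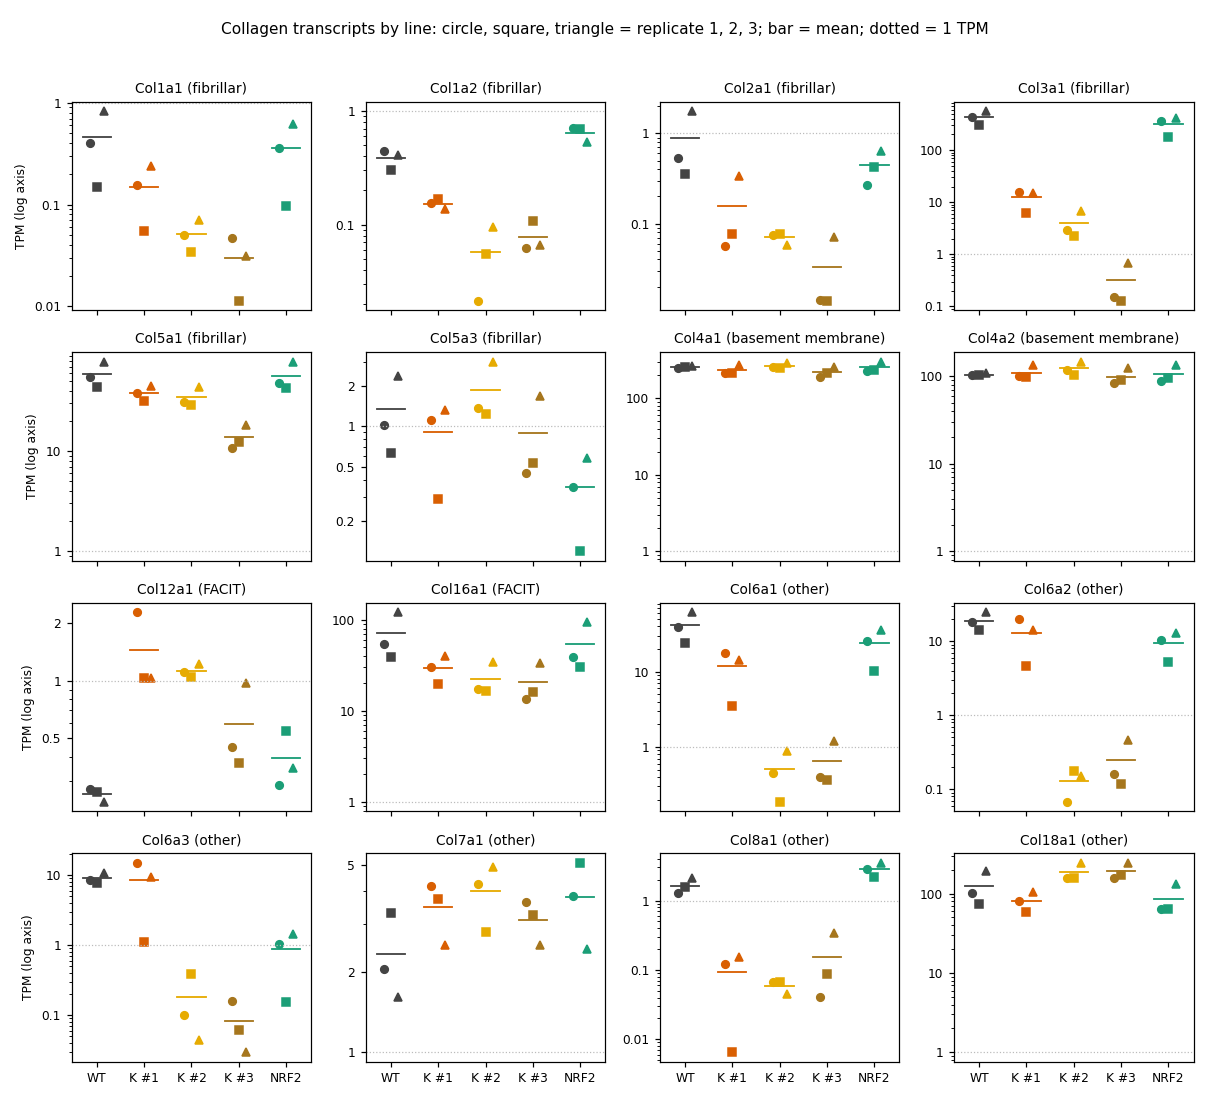
TPM on a log axis, different in each panel, for the 13 collagen chains that reached 1 TPM on average in a line and for Col1a1, Col1a2 and Col2a1, which were called below that level; K #1 to K #3 are the KEAP1 KO lines and NRF2 is NRF2 KO. Circles, squares and triangles are replicates 1, 2 and 3 and the bars are line means: Col3a1 steps down from 436 TPM in LL2 WT to 0.325 TPM in KEAP1 KO #3, while Col4a1 and Col4a2 stay near the same height in all 5 lines.

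In LL2 WT the collagen transcripts summed to 1069.8, 881 and 1435 TPM in the 3 replicates, and in NRF2 KO to 881, 665 and 1215 TPM. The sums in the KEAP1 KO lines ran from 446 to 653 TPM in #1, from 564 to 779 TPM in #2 and from 459 to 685 TPM in #3, each below the lowest LL2 WT sample. The composition differed more than the sum. Fibrillar chains made up 43.9% ± 3.09 (SD, n = 3) of collagen TPM in LL2 WT and 40.3% ± 6.97 in NRF2 KO, but 9.64% ± 0.823, 6.37% ± 0.628 and 2.83% ± 0.329 in KEAP1 KO #1, #2 and #3. Most of this difference lay in Col3a1, which averaged 38.4% in LL2 WT, 34.0% in NRF2 KO and 2.21%, 0.596% and 0.0531% in the KEAP1 KO lines. Col5a1 averaged 5.21% in LL2 WT, 6.05% in NRF2 KO and 6.99%, 5.32% and 2.47% in the KEAP1 KO lines. The share of the basement membrane chains was 32.5%, 40.7% and 25.7% in the LL2 WT replicates and between 57.8% and 63.2% on average in the KEAP1 KO lines, although their summed TPM moved little, from 359 in LL2 WT to 342, 388 and 317 TPM. These shares are a description and were not tested, and a share rises when another class falls. In bulk RNA, fewer cells making a transcript and less of it per cell cannot be told apart.

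**Figure D2:**
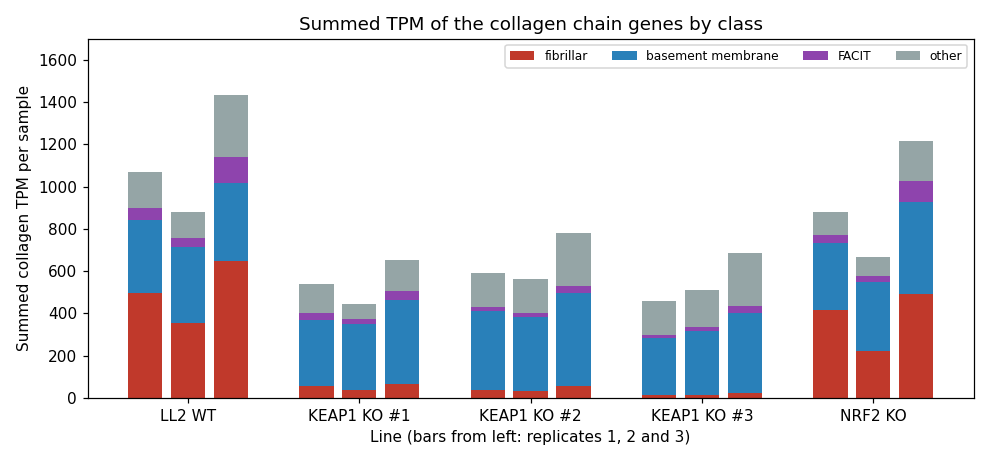
Summed TPM of the 44 collagen chain genes per sample, stacked by class, with the 3 replicates of each line side by side. Fibrillar chains are a large block in LL2 WT and NRF2 KO (43.9% and 40.3% of the sum on average) and a thin one in the KEAP1 KO lines (2.83% to 9.64%), while the basement membrane block keeps nearly the same height. Col3a1 alone averages 38.4% of the sum in LL2 WT and 34.0% in NRF2 KO.

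The largest single difference was in Col3a1, the only chain of type III collagen, the fibre of distensible tissue such as lung and vessel wall. LL2 WT had 436, 309.7 and 563 TPM in replicates 1, 2 and 3, which made Col3a1 38.4% of all collagen TPM. KEAP1 KO #1 had 15.7, 6.17 and 15.2 TPM, KEAP1 KO #2 had 2.96, 2.29 and 6.89 TPM, and KEAP1 KO #3 had 0.1499, 0.129 and 0.695 TPM. The 4 groups did not overlap except between #1 and #2 (6.17 against 6.89 TPM), and in KEAP1 KO #3 the level had come down to about 20.9 to 123 reads per library. The log2 fold changes were -5.20 ± 0.55 (adjusted p = 3.29e-05, 36.8-fold lower), -6.84 ± 0.55 (adjusted p = 1.56e-06, 114-fold lower) and -10.21 ± 0.55 (adjusted p = 3.57e-08, 1187-fold lower). In #3 the size depends on the pseudocount, and with 1 in place of 0.1 the log2 fold change was -8.35, still called. NRF2 KO, at 366, 177 and 411 TPM, overlapped LL2 WT and differed by -0.50 ± 0.55 (adjusted p = 0.795).

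The Col3a1 gene lies at chr1:45311538-45349706 on the plus strand of GRCm38. The RefSeq promoter window, 250 bases before to 50 bases after the start of the transcript (GRCm38.p6, chr1:45311288-45311587, plus strand), is shown because this gene fell furthest; capitals mark TATAAA and any CG.
Col3a1: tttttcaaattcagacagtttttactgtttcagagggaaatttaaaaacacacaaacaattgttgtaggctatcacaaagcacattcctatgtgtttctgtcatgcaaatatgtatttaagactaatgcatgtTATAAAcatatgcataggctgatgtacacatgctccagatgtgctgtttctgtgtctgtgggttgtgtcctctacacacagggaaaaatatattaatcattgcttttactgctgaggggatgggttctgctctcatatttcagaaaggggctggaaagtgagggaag
The window held 1 TATAAA, as did 13.6% of all 32851 promoter windows when both strands were searched, and no CG dinucleotide, as in 5.43% of them. It held no TGACNNNGC, the core letters of the antioxidant response element to which NRF2 binds, which were present on either strand in 12.4% of all windows. Promoter windows were on file for 35 of the 44 collagen genes, and 7 of these 35 held TGACNNNGC in 1 of their windows. Of the chains that reached 1 TPM, 12 had a window, all but Col12a1, which could not be searched. Among those 12, Col4a2, Col6a2 and Col7a1 held TGACNNNGC and are described below. The letters are a description of sequence and not of binding.

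The other fibrillar chains did not follow Col3a1 to the same depth. Col5a1, a chain of the type V collagen that nucleates fibrils, had 55.4, 44.0 and 78.4 TPM in LL2 WT and 10.7, 12.303 and 18.2 TPM in KEAP1 KO #3, where the log2 fold change was -2.098 ± 0.28 (adjusted p = 1.03e-04). KEAP1 KO #1 (37.7, 31.5 and 45.1 TPM) overlapped LL2 WT and #2 (31.0, 28.9 and 43.6 TPM) ended just below its lowest sample, and their differences of -0.61 ± 0.28 and -0.76 ± 0.28 were not called (adjusted p = 0.132 and 0.0525). The ratio of Col3a1 to Col5a1 TPM was 7.36 ± 0.446 in LL2 WT, 5.73 ± 1.82 in NRF2 KO, and 0.317 ± 0.112, 0.111 ± 0.0416 and 0.0209 ± 0.0150 in the KEAP1 KO lines. Col5a2, whose product joins that of Col5a1 in the usual type V molecule and whose gene lies 24614 bases beyond the end of Col3a1 on the opposite strand, was near 0: no LL2 WT sample exceeded 0.0228 TPM, and the highest of all samples was NRF2 KO replicate 1 at 0.188 TPM. Col5a3, the third type V chain, averaged 1.34 ± 0.904 TPM in LL2 WT, 0.905, 1.87 and 0.891 TPM in the KEAP1 KO lines and 0.354 ± 0.233 TPM in NRF2 KO. It was not called in any line (limma, adjusted p between 0.373 and 0.596). With replicate 3 as a batch term it was called in NRF2 KO (0.0446). All NRF2 KO samples lay below LL2 WT, and 13.2% of all tested genes were apart in either direction there.

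Type I collagen, the main fibre of bone, skin and scar, was scarcely transcribed in these cells. Col1a1 was at 0.405, 0.147 and 0.829 TPM in LL2 WT, and at 0.0338 to 0.0712 TPM in KEAP1 KO #2 and 0.0114 to 0.0467 TPM in #3. Its partner Col1a2 was at 0.442, 0.303 and 0.407 TPM in LL2 WT, at 0.0214 to 0.0949 TPM in KEAP1 KO #2 and at 0.0619 to 0.107 TPM in #3. Both chains were lower in every sample of these lines than in any LL2 WT sample, and both were called: Col1a1 by -1.69 ± 0.56 in #2 and -1.92 ± 0.56 in #3 (adjusted p = 0.0337 and 0.0190), Col1a2 by -1.64 ± 0.31 and -1.44 ± 0.31 (adjusted p = 0.00165 and 0.00371). In KEAP1 KO #1 the differences were -1.04 ± 0.56 and -0.93 ± 0.31 and not called. Col2a1, the chain of cartilage collagen, stood at 0.527, 0.353 and 1.77 TPM in LL2 WT and at no more than 0.334 TPM in any KEAP1 KO sample, and was called lower in all 3 lines (-1.83 ± 0.55, -2.25 ± 0.55 and -2.63 ± 0.55; adjusted p = 0.0288, 0.00715 and 0.00268). These low calls leaned on single libraries and on the pseudocount. Without LL2 WT replicate 3, Col1a1 and Col2a1 no longer passed the filter, as Col1a1 did not without LL2 WT replicate 1. The Col1a1 call in #2 was lost without any 1 of the #2 replicates (adjusted p = 0.0537 to 0.0982), the one in #3 without #3 replicate 2 (0.0632), and the Col2a1 call in #1 without #1 replicate 1 or 2 (0.0999 and 0.107). With a pseudocount of 1 in place of 0.1, the differences of all 3 chains were under 1 on the log2 scale. With only the 2 compared lines fitted, the Col1a1 calls in #2 and #3 were lost (limma, adjusted p = 0.0674 and 0.0551). So was the Col2a1 call in #1 (0.127).

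Type IV collagen, the network of basement membranes, was on average the most abundant collagen in every knockout line. In NRF2 KO the basement membrane chains summed to 360 TPM on average, beside 318 TPM of Col3a1, which was ahead in replicate 1. In LL2 WT the means were 359 and 436 TPM. Col4a1 had 245, 256 and 261 TPM in LL2 WT, 212, 216 and 268 in KEAP1 KO #1, 256, 246 and 292 in #2, 187, 212 and 253 in #3, and 228, 230.3 and 301 in NRF2 KO. Col4a2 had 103, 102 and 107 TPM in LL2 WT, 99.5, 96.7 and 133 in KEAP1 KO #1, 118, 104 and 147 in #2, 83.2, 90.1 and 124 in #3, and 88.7, 94.6 and 135 in NRF2 KO. Each knockout line overlapped LL2 WT for both genes. Against LL2 WT the log2 fold changes of Col4a1 lay between -0.24 ± 0.14 (KEAP1 KO #3, adjusted p = 0.212) and 0.06 ± 0.14, and those of Col4a2 between -0.09 ± 0.19 and 0.23 ± 0.19 (KEAP1 KO #2, adjusted p = 0.390). Neither gene was called in any line. The ratio of Col4a1 to Col4a2 TPM, for chains that the main type IV molecule uses in a fixed proportion, averaged 2.13 to 2.44 in the 5 lines and stayed between 1.99 and 2.57 in single samples.

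Col4a1 (chr8:11198423-11312826, minus strand) and Col4a2 (chr8:11312805-11449287, plus strand) lie head to head, and their annotated spans overlap by 22 bases. Their RefSeq promoter windows share 78 bases (chr8:11312777-11312854, GRCm38.p6). The Col4a2 window (chr8:11312555-11312854, plus strand) is shown with the shared stretch in capitals, since it is the start region that both of these steadily expressed genes use.
Col4a2: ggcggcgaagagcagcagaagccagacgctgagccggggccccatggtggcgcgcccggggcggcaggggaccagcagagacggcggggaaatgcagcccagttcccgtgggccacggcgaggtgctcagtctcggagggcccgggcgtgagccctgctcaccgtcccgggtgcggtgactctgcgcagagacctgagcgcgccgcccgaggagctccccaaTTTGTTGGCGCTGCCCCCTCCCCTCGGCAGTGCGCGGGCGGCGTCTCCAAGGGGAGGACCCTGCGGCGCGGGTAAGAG
The window held 33 CG dinucleotides, a number reached by 8.56% of all promoter windows, whose median is 7. The Col4a1 window held 37. The Col4a2 window also held 1 TGACNNNGC, and the Col4a1 window none. Of the other type IV chains, Col4a3 averaged at most 0.586 TPM in a line and was not called, and Col4a4, Col4a5 and Col4a6 averaged at most 0.0836 TPM and were not tested.

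Type VI collagen, which forms beaded filaments around cells from 3 different chains, separated the KEAP1 KO lines from each other. Col6a1 had 38.9, 24.0 and 61.7 TPM in LL2 WT and 17.5, 3.47 and 14.4 in KEAP1 KO #1, but 0.458, 0.188 and 0.896 in #2 and 0.396, 0.368 and 1.21 in #3. Col6a2 had 18.1, 14.004 and 24.7 TPM in LL2 WT and 20.2, 4.61 and 14.2 in KEAP1 KO #1, but 0.0677, 0.174 and 0.1501 in #2 and 0.159, 0.118 and 0.462 in #3. Col6a3 had 8.49, 7.69 and 10.8 TPM in LL2 WT and 15.04, 1.11 and 9.34 in KEAP1 KO #1, but 0.0987, 0.391 and 0.0445 in #2 and 0.158, 0.0603 and 0.0293 in #3. All 3 chains were thus far below LL2 WT in every sample of #2 and #3, while KEAP1 KO #1 overlapped LL2 WT for Col6a2 and Col6a3 and had replicate 2 as its lowest sample for each chain. In #2 the log2 fold changes were -6.16 (Col6a1), -6.36 (Col6a2) and -5.22 (Col6a3), and in #3 -5.85, -5.87 and -5.68 (SE 0.68, 0.52 and 0.86 for the 3 chains; adjusted p between 1.94e-06 and 5.57e-04). In KEAP1 KO #1 none was called: the differences were -2.00 ± 0.68 for Col6a1 (adjusted p = 0.0505), -0.74 ± 0.52 for Col6a2 and -0.69 ± 0.86 for Col6a3. The Col6a1 value depended on single libraries in both directions: it was called without #1 replicate 1 (adjusted p = 0.0422) or LL2 WT replicate 2 (0.0388), and came to -1.28 (adjusted p = 0.220) without #1 replicate 2. With a pseudocount of 1 the log2 fold changes in #2 and #3 came to -4.74 and -4.62 for Col6a1, -4.11 and -3.98 for Col6a2 and -3.08 and -3.20 for Col6a3, still called, and Col6a1 in #1 was called as well (-1.87, adjusted p = 0.0245).

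In NRF2 KO, Col6a1 (25.5, 10.28 and 35.9 TPM) overlapped LL2 WT and Col6a2 (10.28, 5.198 and 12.9 TPM) lay below its lowest sample, with log2 differences of -0.87 ± 0.68 and -1.05 ± 0.52 that were not called. Col6a3, the largest chain of the molecule, was at 1.02, 0.151 and 1.44 TPM there, below every LL2 WT sample. The log2 difference of -3.57 ± 0.86 was not called either (adjusted p = 0.110, or 0.0464 and called with replicate 3 as a batch term). The ratio of Col6a3 to Col6a2 TPM was 0.485 ± 0.0575 in LL2 WT and 0.0802 ± 0.0446 in NRF2 KO. In the KEAP1 KO #2 and #3 lines this ratio scattered from 0.0635 to 2.25 between samples, on as few as 9.4 reads of Col6a2 in 1 library.

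Col6a2 (chr10:76595762-76623630) and Col6a1 (chr10:76708792-76726168) stand 85161 bases apart on the minus strand, and Col6a3 (chr1:90765923-90843971, minus strand) is on another chromosome. The promoter windows of Col6a1 (GRCm38.p6, chr10:76725995-76726294, minus strand) and Col6a3 (chr1:90843922-90844221, minus strand) are shown because these unlinked genes were low in the same lines; capitals mark CG.
Col6a1: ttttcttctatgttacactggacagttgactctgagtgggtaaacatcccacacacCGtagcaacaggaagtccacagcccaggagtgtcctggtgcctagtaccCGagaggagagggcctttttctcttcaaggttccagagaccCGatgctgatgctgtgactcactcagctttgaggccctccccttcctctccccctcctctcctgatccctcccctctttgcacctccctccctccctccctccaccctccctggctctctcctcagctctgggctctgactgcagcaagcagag
Col6a3: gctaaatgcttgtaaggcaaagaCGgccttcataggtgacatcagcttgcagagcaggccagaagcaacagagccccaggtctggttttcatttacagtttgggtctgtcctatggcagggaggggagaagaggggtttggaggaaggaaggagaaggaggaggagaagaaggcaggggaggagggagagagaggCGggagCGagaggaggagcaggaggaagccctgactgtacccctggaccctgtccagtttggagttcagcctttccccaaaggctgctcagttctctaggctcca
Each held 3 CG dinucleotides, a number not exceeded by 31.4% of all promoter windows, and neither held TATAAA or TGACNNNGC. Col6a2 had 2 RefSeq windows, with 16 and 6 CG, of which the former held 1 TGACNNNGC. The other type VI chains, Col6a4, Col6a5 and Col6a6, averaged at most 0.0390 TPM in any line.

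Among the FACIT collagens, Col16a1, which associates with fibrils and with basement membranes, was the abundant one. It had 54.6, 38.8 and 121 TPM in LL2 WT, 30.4, 19.5 and 39.6 in KEAP1 KO #1, 17.1, 16.5 and 34.0 in #2, 13.3, 16.1 and 33.1 in #3, and 39.0, 30.03 and 95.04 in NRF2 KO. All #2 and #3 samples were below the lowest LL2 WT sample. The log2 fold changes were -1.57 ± 0.52 in #2 and -1.72 ± 0.52 in #3 (adjusted p = 0.0334 and 0.0225), and -1.15 ± 0.52 in #1 and -0.40 ± 0.52 in NRF2 KO, neither called. Neither call survived the removal of some single libraries. For #2 the adjusted p became 0.0589 or 0.140 when replicate 1 or 3 of LL2 WT was omitted, and 0.109 or 0.113 when #2 replicate 1 or 2 was. For #3 it became 0.0959 when LL2 WT replicate 3 was omitted, and 0.0912 or 0.0755 when #3 replicate 1 or 2 was. Both calls were also lost with only the 2 compared lines fitted (limma, adjusted p = 0.0630 in #2 and 0.0623 in #3).

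Col12a1, whose long product bridges fibrils, was the only one of the 22 tested chains called higher than LL2 WT in any line in the main fit. LL2 WT had 0.271, 0.261 and 0.233 TPM, KEAP1 KO #1 had 2.29, 1.04 and 1.04, KEAP1 KO #2 had 1.12, 1.04 and 1.22, and KEAP1 KO #3 had 0.449, 0.374 and 0.971. The lowest of these knockout values, 0.374 TPM, was above the highest of LL2 WT. It rose by 2.04 ± 0.37 in #1 and 1.79 ± 0.37 in #2 (adjusted p = 0.00182 and 0.00280), while the 0.88 ± 0.37 in #3 was not called (adjusted p = 0.0874). NRF2 KO, at 0.286, 0.547 and 0.350 TPM, was also above LL2 WT in each sample and differed by 0.44 ± 0.37, not called (adjusted p = 0.727). With a pseudocount of 1 the difference came to 0.93 in #1 and 0.76 in #2, under the fold required for a call. The cartilage chain Col9a3, Col14a1 and Col20a1 were tested and not called, and Col9a1, Col9a2, Col19a1 and Col22a1 were not tested. Col22a1 just missed the filter, with 0.508, 0.750 and 0.630 TPM in KEAP1 KO #2 against 0.0373, 0.142 and 0.0799 TPM in LL2 WT. With no filter it was called higher in #2.

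Col8a1, a short chain that forms the hexagonal network beneath vascular and corneal endothelium, was low in all KEAP1 KO lines alike. LL2 WT had 1.27, 1.55 and 2.12 TPM and NRF2 KO had 2.86, 2.198 and 3.51 TPM. The KEAP1 KO samples lay between 0.00649 TPM, worth about 1 read, and 0.337 TPM, with means of 0.0937, 0.0594 and 0.155 TPM. The log2 fold changes of -3.24 ± 0.44, -3.43 ± 0.44 and -2.92 ± 0.44 were called (adjusted p = 2.57e-04, 9.28e-05 and 2.93e-04), and the 0.76 ± 0.44 in NRF2 KO was not (adjusted p = 0.574), although its samples all lay above those of LL2 WT. With a pseudocount of 1 the differences in the KEAP1 KO lines came to -1.27, -1.31 and -1.19 and were still called.

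Col18a1, a basement membrane multiplexin whose tail is released as endostatin, went the other way in part. It had 101, 74.7 and 193 TPM in LL2 WT, 79.5, 59.1 and 103 in KEAP1 KO #1, 158, 156 and 239 in #2, 155, 173 and 244 in #3, and 63.7, 63.4 and 132 in NRF2 KO. The groups overlapped with LL2 WT in each case, and the log2 fold changes of -0.53, 0.67, 0.72 and -0.48 (SE 0.36) were not called; without LL2 WT replicate 3, the highest of its line, those in #2 and #3 came to 1.05 and 1.11 and were called (adjusted p = 0.0397 and 0.0314). As a share of collagen TPM, Col18a1 averaged 10.5% in LL2 WT, 14.6%, 28.3% and 34.4% in the KEAP1 KO lines and 9.22% in NRF2 KO. Col7a1, the anchoring fibril that ties basement membrane to stroma, averaged 2.32 TPM in LL2 WT and 3.13 to 3.99 TPM in the other lines and was not called, except in #2 when LL2 WT replicate 2 was left out (log2 fold change 1.06, adjusted p = 0.0284). Its promoter window held 1 TGACNNNGC.

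Counted over the 22 tested chains, the calls in KEAP1 KO #1 were 3 lower (Col2a1, Col3a1 and Col8a1) and 1 higher (Col12a1), while among all tested genes 3.99% were called lower and 4.55% higher. The former count was 5 without LL2 WT replicate 2, where Col1a2 and Col6a1 joined, and 2 without LL2 WT replicate 3 or #1 replicate 2. KEAP1 KO #2 had 1 higher (Col12a1) and 9 lower (Col1a1, Col1a2, Col2a1, Col3a1, Col6a1, Col6a2, Col6a3, Col8a1 and Col16a1), against 5.94% and 7.75% of all tested genes. KEAP1 KO #3 had 0 higher and 10 lower, the 9 genes of #2 and Col5a1, against 6.09% and 7.34%. NRF2 KO had 0 in either direction, with 3 chains at an unadjusted p under 0.05 in limma, and only 0.0887% and 0.375% of all tested genes were called there. With replicate 3 as a batch term, Col5a3 and Col6a3 were called lower in NRF2 KO (limma, adjusted p = 0.0446 and 0.0464). The median log2 fold change of the 22 chains was -0.65, -0.57, -1.14 and -0.19 in KEAP1 KO #1, #2, #3 and NRF2 KO, and that of all tested genes was 0.11, 0.03, 0.02 and 0.04. By class, the calls in #3 were 5 of 7 fibrillar chains, 0 of 3 basement membrane chains, 1 of 5 FACIT chains and 4 of 7 others. The fibrillar calls include Col1a1, Col1a2 and Col2a1, whose means were under 1 TPM in every line. None of these was called in #2 or #3 with a pseudocount of 1. Col1a1 and Col2a1 passed the filter only with the LL2 WT samples, where they were highest, so their lower calls carry little weight in these counts. Without LL2 WT replicate 2, Col7a1 made another gene called higher in #2, and without LL2 WT replicate 3 Col18a1 was called higher in #2 and #3. All 4 comparisons share the same LL2 WT samples.

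**Figure D3:**
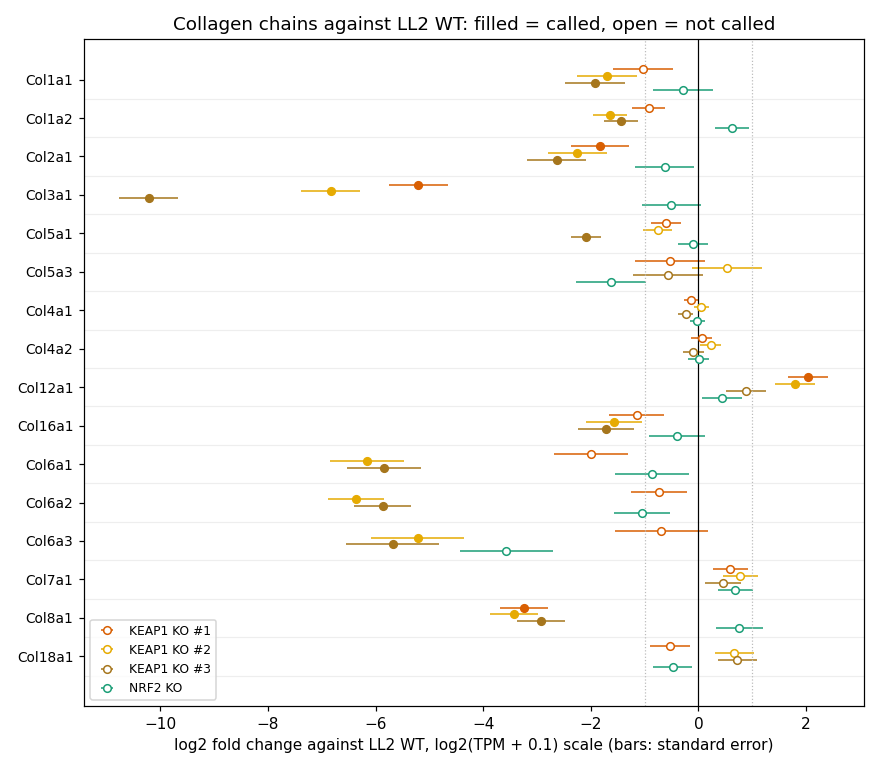
log2 fold change against LL2 WT with its standard error, on the log2(TPM + 0.1) scale, for 16 collagen chains in each knockout line, ordered by class. Filled points were called and open points were not; Col3a1 reaches -10.21 in KEAP1 KO #3, the Col6 chains are split between KEAP1 KO #1 and the other KEAP1 KO lines, and Col4a1 and Col4a2 lie close to 0.

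The KEAP1 KO lines were also compared with each other. Between #2 and #1, 3 of the 22 chains were called (Col6a1, Col6a2 and Col6a3, all lower in #2), where 4.58% of all tested genes were called. Between #3 and #1, 6 were called against 4.63% of all genes: Col3a1, Col5a1 and the 3 type VI chains were lower in #3, and Col18a1 was higher. Between #3 and #2, 2 were called against 0.485%, Col3a1 and Col5a1, both lower in #3. Between the latter lines the type VI chains were not called, with differences from -0.47 ± 0.86 (Col6a3) to 0.49 ± 0.52 (Col6a2). Col8a1 was not called between any of the KEAP1 KO lines, with differences of at most 0.50 ± 0.44. The Col18a1 call was lost without any 1 of 5 libraries (#1 replicate 1 or 2, or any of #3; adjusted p = 0.0691 to 0.144). Between #3 and #2, the count was 0 without #3 replicate 1 or 2 (Col3a1 at 0.0581 and 0.0603) and 1, Col3a1, without any 1 of the #2 replicates.

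Replicate 3 stood apart for many of these genes. It was the highest sample in all 5 lines for Col4a1, Col4a2, Col5a1, Col5a3, Col16a1 and Col18a1, which was the case for 2812 of the 12506 genes at 1 TPM or more in a line (22.5%). Its excess over the mean of replicates 1 and 2 was 1.04 to 1.58 on the log2 scale for Col5a3, 0.70 to 1.47 for Col16a1 and 0.58 to 1.15 for Col18a1, but 0.06 to 0.39 for Col4a1. The labels do not say what replicate 3 shared. Within replicate 3 alone, some differences from LL2 WT were smaller than over replicates 1 and 2 and some larger, and among the chains at 1 TPM or more in a line the called ones kept their direction. For Col3a1 they were -5.20, -6.33 and -9.47 in replicate 3 and -5.21, -7.09 and -10.59 over the others, in the order #1, #2 and #3, and for Col8a1 -3.14, -3.94 and -2.35 against -3.29, -3.17 and -3.21. Col6a2 in #2 and #3 had -6.63 and -5.46 against -6.22 and -6.08, and Col16a1 in those lines -1.83 and -1.87 against -1.45 and -1.64. Further apart were Col12a1 in #3 (1.69 in replicate 3 and 0.48 over the others), Col7a1 in #2 (1.55 and 0.40) and Col18a1 in #2 and #3 (0.31 and 0.34, against 0.85 and 0.92), none of which was called. In a fit with replicate 3 as a batch term, 4 further differences from LL2 WT were called lower by limma: Col6a1 and Col16a1 in #1 (adjusted p = 0.00633 and 7.38e-04), and Col5a3 and Col6a3 in NRF2 KO (0.0446 and 0.0464).

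**Figure D4:**
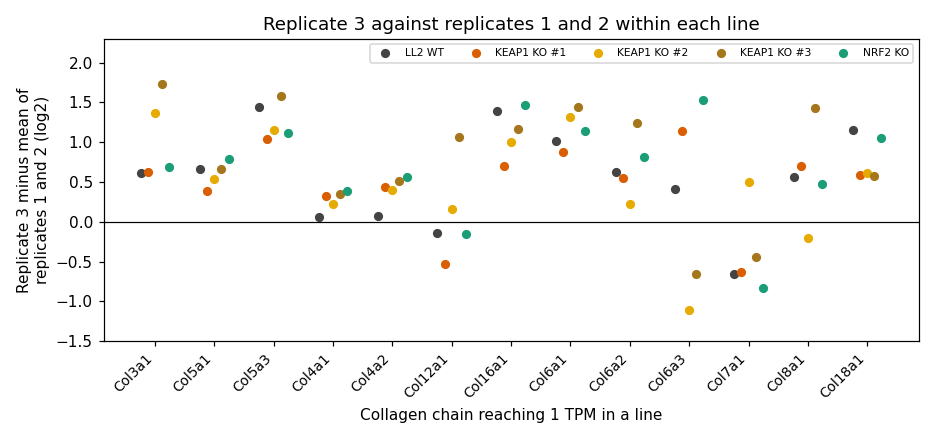
For each collagen chain that reached 1 TPM in a line, the log2(TPM + 0.1) value of replicate 3 minus the mean of replicates 1 and 2, with 1 point for each of the 5 lines. All 5 points lie above 0 for Col5a3 (1.04 to 1.58), Col16a1 (0.70 to 1.47) and Col18a1 (0.58 to 1.15), and close to 0 for Col4a1 (0.06 to 0.39).

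Collagen chains need a dedicated set of enzymes and chaperones, and 4 lists of these were examined: prolyl and lysyl hydroxylation, folding and export, propeptide processing, and cross-linking. Of 41 genes, 35 were tested; in KEAP1 KO #1, #2 and #3, 8, 11 and 11 were called lower and 1, 2 and 3 called higher. Over all tested genes 3.99%, 7.75% and 7.34% were called lower and 4.55%, 5.94% and 6.09% higher. In NRF2 KO none was called, with 1 at an unadjusted p under 0.05 in limma. The median log2 fold changes of the 35 were -0.23, -0.43, -0.60 and -0.09, beside 0.11, 0.03, 0.02 and 0.04 for all tested genes. Fkbp10, a prolyl isomerase that helps fold procollagen, had 83.1, 86.1 and 67.3 TPM in LL2 WT, 7.19 to 12.9 in KEAP1 KO #1, 7.05 to 9.99 in #2 and 3.82 to 5.58 in #3, and had log2 fold changes of -3.103, -3.24 and -4.11 (SE 0.21; adjusted p at most 7.24e-07). Serpinh1 (HSP47), the chaperone that binds the finished helix, had 507, 433 and 482 TPM in LL2 WT and 148, 156 and 193 TPM in #3, and was called lower in #2 and #3 (-1.12 ± 0.12 and -1.52 ± 0.12). Creb3l1, a membrane-bound activator of collagen genes, averaged 4.56 ± 4.75 TPM in LL2 WT and 0.1599 to 0.184 TPM in the KEAP1 KO lines (log2 fold changes -3.82, -3.82 and -3.73, adjusted p at most 0.00545). The LL2 WT mean was carried by replicate 3, at 10.0 TPM against 2.39 and 1.28 TPM in replicates 1 and 2. NRF2 KO had 0.616, 0.382 and 2.52 TPM, which overlapped LL2 WT and was not called.

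The hydroxylation list had 3, 5 and 5 of its 14 tested genes called lower and none higher, where the shares of all tested genes called lower were 3.99%, 7.75% and 7.34%. P3h2, P3h3 and P3h4, of the prolyl 3-hydroxylase family, were lower in all KEAP1 KO lines; P3h4 differed by -2.21, -2.86 and -3.58 (SE 0.51) and P3h3 by -1.97, -2.77 and -3.24 (SE 0.49). P4ha3, a prolyl 4-hydroxylase subunit, was lower in #2 and #3 (-2.204 and -1.93). Among the enzymes that trim the propeptides the calls went both ways: Bmp1 was lower in the KEAP1 KO lines (-1.02, -1.11 and -1.24), while its relative Tll1 rose from 0.0405 ± 0.0133 TPM to 1.95 ± 0.0324, 1.51 ± 0.190 and 0.804 ± 0.129 TPM, by 3.87, 3.52 and 2.68 on the log2 scale (SE 0.24, adjusted p at most 3.73e-06). Mep1a rose in #2 and #3 (3.49 and 3.61), and Adamts14 fell in #1 (-1.23, adjusted p = 0.0410). Among the cross-linking enzymes, Loxl3 went from 29.4, 19.4 and 35.6 TPM in LL2 WT to 1.53 to 5.54 TPM over the KEAP1 KO samples (-3.03, -3.55 and -3.50), Loxl4 fell in #2 and #3 (-1.31 and -1.24), and Tgm2 rose in #3 (1.38).

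Among proteins that bind collagen in the matrix, 2, 5 and 5 of 7 tested genes were called lower in the KEAP1 KO lines. In the same order, 0, 1 and 1 were called higher. For all tested genes the shares were 3.99%, 7.75% and 7.34% lower and 4.55%, 5.94% and 6.09% higher. NRF2 KO had no call by limma, with 3 genes at an unadjusted p under 0.05. The gene called higher was Tnxb, which is named after its values were seen. It averaged 0.828 ± 0.457 TPM in LL2 WT, 2.84 ± 0.742 in #2 and 3.21 ± 1.55 in #3. Sparc, a binder of collagens in many matrices, averaged 288 ± 23.4 TPM in LL2 WT, 266 ± 25.9 in NRF2 KO, and 64.1 ± 30.3, 80.0 ± 29.3 and 37.9 ± 12.7 in the KEAP1 KO lines (-2.29, -1.90 and -2.97). Fn1 (fibronectin) and Thbs1 (thrombospondin 1), like the type VI chains, were called lower in #2 and #3 both against LL2 WT and against #1. Fn1 differed from LL2 WT by -3.53 in #2, -3.51 in #3 and -1.26 in #1, the last not called, and Thbs1, at 21.5 ± 13.6 TPM in LL2 WT and 35.3 ± 15.1 TPM in #1, was at 0.191 ± 0.112 and 0.467 ± 0.431 TPM in #2 and #3 (-6.11 and -5.33). Ogn, a small leucine-rich proteoglycan at 4.43 ± 4.11 TPM in LL2 WT, was called lower in all 3 lines (-2.27, -4.17 and -4.02). In NRF2 KO, Ogn averaged 0.927 ± 0.432 TPM and Thbs1 5.13 ± 2.80 TPM. Both lay below LL2 WT in every NRF2 KO sample without being called, and 13.2% of all tested genes were apart in either direction there. Sparc and Fn1 overlapped LL2 WT in NRF2 KO. Of 8 tested collagen receptors, Mrc2, which takes up collagen fragments, was lower in the KEAP1 KO lines (-4.22, -3.86 and -4.74), from 24.7 ± 6.03 TPM in LL2 WT. Adgrg1, a receptor for type III collagen, rose by 2.03, 2.28 and 2.16 (SE 0.36), and Itga2 rose by 1.93 and 1.84 in #2 and #3. Ddr1, Ddr2, Itga1, Itga10 and Itgb1 were not called in any line.

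**Figure D5:**
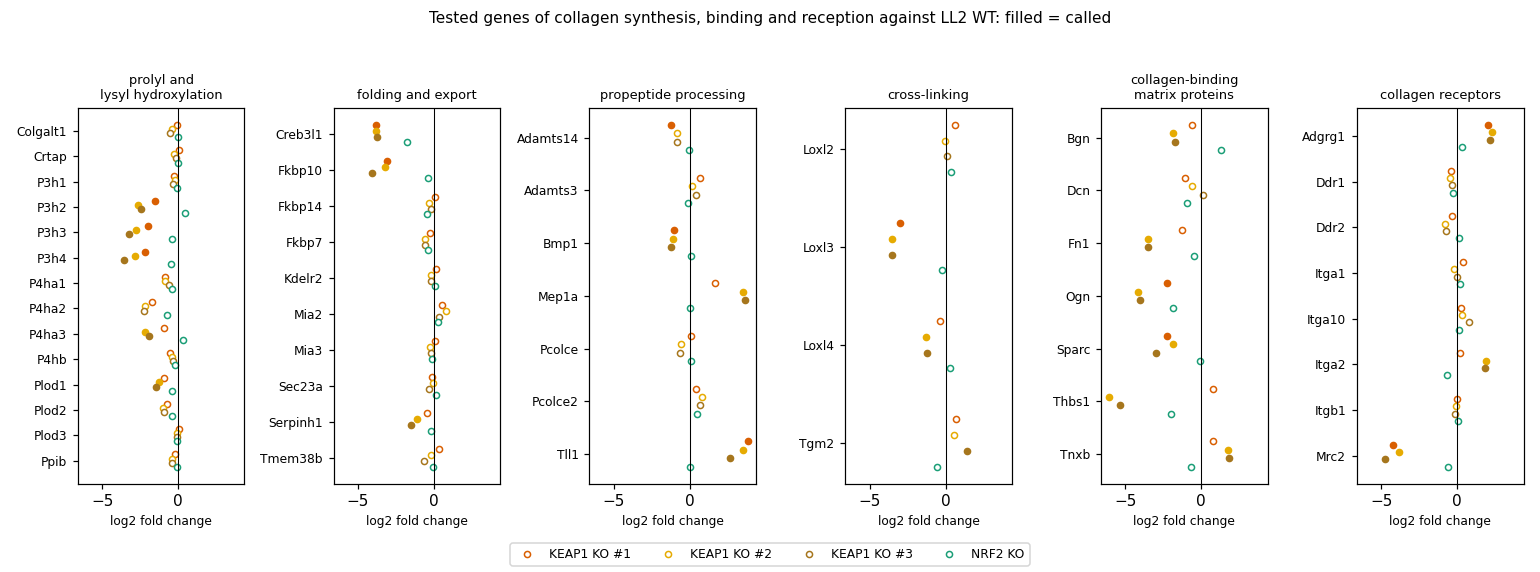
log2 fold change against LL2 WT for the tested genes of 6 lists of collagen synthesis, matrix binding and reception, with filled points for called genes and open points for the rest. The called genes of hydroxylation and of folding and export are all lower in the KEAP1 KO lines (Fkbp10 from -3.103 to -4.11), Tll1 and Adgrg1 are among the few called higher, and no point is filled for NRF2 KO.

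Markers of other cell types moved as well, and they are given beside these results. Of 9 fibroblast markers, 5 reached 1 TPM in a line, and their sum was 84.4 to 111 TPM in LL2 WT, 84.5 to 88.7 in KEAP1 KO #1, 55.6 to 59.0 in #2, 45.9 to 56.3 in #3 and 74.9 to 89.1 in NRF2 KO. Dpt, at 10.09 ± 6.15 TPM in LL2 WT and 9.86 ± 3.72 TPM in #1, was lower in #2 (-5.17) and #3 (-3.89). Pdgfrb was higher in #1 (2.28) and lower in #2 and #3 (-2.82 and -2.57), and Pdgfra was lower in #3 (-1.87). Of 6 fibroblast markers tested, 0, 2 and 3 were called lower and 1, 0 and 0 higher in #1, #2 and #3. Over all tested genes, 3.99%, 7.75% and 7.34% were called lower and 4.55%, 5.94% and 6.09% higher. These shares also stand beside the counts of the next lists. Of 10 epithelial and lung markers, Krt8, Krt18, Krt19 and Napsa reached 1 TPM and Scgb1a1 was at 0 everywhere; the sum was 593 to 669.6 TPM in LL2 WT, 299.7 to 440.3 in #1, 538 to 640 in #2 and #3, and 386 to 548 in NRF2 KO. Of 5 of them tested, 1 was called lower and 1 higher in each KEAP1 KO line: Napsa was lower (-1.70, -2.57 and -1.83) and Sftpb, which stayed below 1 TPM and is named after its values were seen, was higher (1.66, 1.92 and 2.54). Of 8 endothelial and leukocyte markers, Pecam1, Cdh5 and Cd68 reached 1 TPM and Adgre1 was at 0 everywhere, with sums of 4.54 to 8.23 TPM in LL2 WT, 8.54 to 14.4 in #1, 14.7 to 29.5 in #2, 20.4 to 43.1 in #3 and 6.77 to 9.52 in NRF2 KO. Of 4 tested, 0, 2 and 2 were called higher in #1, #2 and #3 and 0 lower in each. Cdh5 (2.92 and 3.45) and Cd68 (2.202 and 2.86) were higher in #2 and #3. The part of these marker changes in the collagen results was not tested.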

How the data were processed

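RNA of 15 LL2 cultures was sequenced as poly(A)-selected libraries (KAPA mRNA HyperPrep). The authors quantified reads with kallisto against mouse cDNA (bcl2fastq 1.9.0 for demultiplexing, per the labels; the labels name GRCm39 and the methods GRCm38.p6) and deposited 1 table. Its file name calls the values CPM, but they are TPM per the values deposited by the authors: for genes with a single transcript of over 1000 bases, multiplying low values by effective length gave whole reads (tolerance 0.1) for 82.1% to 90.7% of values, against 25.9% to 33.1% without a length term. The design had assumed CPM, and its filter and pseudocount were kept. Both act on TPM, in which a given number of reads counts for less on a longer transcript. Col22a1, with a sum of 2.99 TPM, just missed the filter, though KEAP1 KO #2 had about 136 to 201 reads of it per library. With values in TPM, library totals are unknown, and only their ratio (1.87-fold between the deepest and the shallowest) could be read. An entry with no gene symbol (at most 0.0491% of a sample) was left out.

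Log2(TPM + 0.1) values of genes with a sum of at least 3 were fitted with limma 3.58.1 (a mean for each line, trended variance, Benjamini-Hochberg adjustment over all 14652 genes), after a test on simulated data; calls needed an adjusted p under 0.05 and a log2 fold change beyond 1. Named genes were the chains reaching 1 TPM or called, and at most 4 called genes of each list, those with the largest changes among genes reaching 1 TPM. The members and lists were chosen with earlier results of these data known. Coordinates are from GENCODE vM21 (GRCm38) and promoters from RefSeq. Alternatives covered pseudocount, filter, scaling, trend, lines fitted, replicate terms and leaving out each library. Same-numbered replicates deviated together in all 10 pairs of lines for replicate 2 (r = 0.106 to 0.438) and replicate 3 (0.346 to 0.553). For replicate 1, r was -0.0215 to 0.222 and passed 0.1 only in KEAP1 KO #2 with #3 and KEAP1 KO #3 with NRF2 KO. Between differently numbered samples the median r of a pair of lines was -0.228 to -0.0535. In each of the 10 pairs it lay below all same-numbered values, those of replicate 1 included. The main fit has no replicate term, so shifts shared by same-numbered samples stay in its spread. The labels do not say whether replicates were separate cultures grown on separate days, so p-values measure the spread between these samples.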

Additional observations from a re-analysis of the deposited data

Results flagged for a closer look

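The KEAP1 KO lines differed from each other in 6 collagen chains, by the limma test of the difference itself, which compares lines that each grew from 1 cell. Against KEAP1 KO #1, line #2 differed by -4.16 ± 0.68 for Col6a1 (adjusted p = 0.00190), -5.62 ± 0.52 for Col6a2 (3.60e-05) and -4.53 ± 0.86 for Col6a3 (0.00473) on the log2 scale. Line #3 differed from #1 by -3.85 ± 0.68 for Col6a1 (0.00303), -5.13 ± 0.52 for Col6a2 (6.96e-05), -5.00 ± 0.86 for Col6a3 (0.00255), -5.01 ± 0.55 for Col3a1 (1.16e-04), -1.49 ± 0.28 for Col5a1 (0.00431) and 1.25 ± 0.36 for Col18a1 (0.0409). Line #3 differed from #2 by -3.38 ± 0.55 for Col3a1 (0.00922) and -1.34 ± 0.28 for Col5a1 (0.0475).

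The 8 differences from #1 other than that of Col18a1 were called in all 18 alternatives. That of Col18a1 was called in 10 of 18, and was lost without #1 replicate 1 (adjusted p = 0.102), #1 replicate 2 (0.144), #3 replicate 1 (0.0691), #3 replicate 2 (0.0902) or #3 replicate 3 (0.115). The difference of Col5a1 between #3 and #2 was called in 9 of 18 and lost without any 1 replicate of either line except #3 replicate 3, with adjusted p from 0.109 to 0.221. That of Col3a1 between #3 and #2 was called in 14 of 18 and lost without #3 replicate 1 (0.0581) or #3 replicate 2 (0.0603). With 3 samples in each line, no line was examined for an outlying sample.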

How the results depend on the processing

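Of 35 called fold changes, 21 stayed called in every alternative that gave a value and 14 were lost in at least 1, and 0 changed sign. With a pseudocount of 1, the chains called higher in KEAP1 KO #1 and #2 fell from 1 to 0 in each (Col12a1), those called lower from 9 to 6 in #2 and from 10 to 7 in #3 (Col1a1, Col1a2 and Col2a1 lost), in #1 Col6a1 took the place of Col2a1, and those differing between #3 and #2 from 2 to 0. That last count was also 1 with no trend and 0 with the pair of lines fitted alone. With no filter, 2 chains were higher in #2 (Col22a1 joining). Quantile normalization gave 5 lower in #1. With a replicate block, limma gave 5 lower in #1 and 2 lower in NRF2 KO (Col5a3 and Col6a3, adjusted p = 0.0229 and 0.0384). The block gave 6 differing between #2 and #1. Replicate 3 as a batch term gave 5, 2 and 5. Over libraries left out singly, counts ran from 2 to 5 lower in #1, 1 to 2 higher and 7 to 9 lower in #2, 0 to 1 higher and 7 to 10 lower in #3, and 0 to 2 between #3 and #2; chains reaching 1 TPM numbered 13 to 14.

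The sign turned only for differences that were not called. Col4a2 came to -0.047 in KEAP1 KO #1 and -0.042 in NRF2 KO after rescaling by the median ratio, and to -0.084 and -0.036 after quantile normalization, which gave Col4a1 -0.080 in #2. Over libraries left out singly, Col4a2 ran from -0.085 to 0.14 in #1, -0.27 to 0.021 in #3 and -0.18 to 0.12 in NRF2 KO, and Col4a1 from -0.019 to 0.11 in #2 and -0.15 to 0.050 in NRF2 KO. Likewise Col5a3 ran from -0.93 to 0.051 and Col6a3 from -1.41 to 0.41 in #1, and in NRF2 KO Col5a1 from -0.36 to 0.12, Col16a1 from -0.89 to 0.064 and Col1a1 from -0.77 to 0.24. The all-gene median of 0.11 in KEAP1 KO #1 became 0.01 after rescaling. With 1 sample fewer, a line is assumed to vary like the others. Every sample correlated best with its own number in 2 of the 10 pairs of lines, and the block changed no call between #3 and #2. Depth limits the chains nearest 0, such as Col1a1 in KEAP1 KO #3 (about 2.0 to 11.8 reads per library). Some chains under 1 TPM had more, such as Col22a1 in KEAP1 KO #2 (about 136 to 201).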
